A study of Oryctolagus cuniculus with 4 samples.

Results

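The proteasome is the protease complex that degrades proteins tagged with ubiquitin. Its genes were described here in rabbit ear hypertrophic scar (HS), using every row whose symbol begins with PSMA to PSMG and a digit, or is POMP or ADRM1. This gave 30 of 13913 genes, of which 28 had enough signal to be tested. The 2 groups had 2 libraries each, all from WT rabbits. The HS libraries came from scars, raised by excision wounds on the ventral ear, that had no treatment. The drug-loaded MNs libraries came from such scars after drug-loaded microneedles (MNs), needle patches whose tips stay in the skin and release a derivative of 5-fluorouracil, had been applied weekly for 3 weeks. Each library was made from the ventral epidermis and dermis of 1 scar tissue of female rabbits. The study calls the samples biologically independent but does not tie them to single rabbits, so p-values measure only the spread between these libraries.

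The core particle (20S) is a barrel of rings. Its outer rings of alpha subunits control entry, and its inner rings of beta subunits hold the cutting sites. The regulatory particle (19S) sits on the barrel, where its lid removes ubiquitin and its base of ATPases unfolds the substrate. In immune cells, and in other cells exposed to interferon, inducible catalytic subunits take the place of the constitutive ones to form the immunoproteasome, which supplies peptides for presentation on MHC class I molecules. Skin and scar cells carry the constitutive form, and keratinocytes and fibroblasts can make the inducible subunits as well.

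Values are given in units of 1 part in 1000000 of a library's total. The depth was unknown, since the deposited values were scaled to a common total. On the first principal component of all 9348 tested genes (43.0% of the variance), HS replicate 1 lay at 37.2, HS replicate 2 at -0.9 and the drug-loaded MNs libraries at -18.3 and -17.9. HS replicate 1 thus stood apart from the other libraries. A value in such a library is an average over its cells. Fewer cells of a type and less RNA per cell cannot be told apart.

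No proteasome gene passed the test between drug-loaded MNs and HS. In limma 0 of 28 members had an adjusted p below 0.05, where 0.0428% of all tested genes did, and the smallest adjusted p of a member was 0.74. At an unadjusted p below 0.05 there were 0 members in either direction, against 7.26% of all genes for higher and 1.39% for lower values. Log2 fold changes of the members lay between -0.46 (PSMB9) and 0.18 (PSMC3IP), none beyond 0.5 in size. Their standard errors (SE) ran from 0.21 to 0.53. With 2 libraries per group, the absence of calls thus does not show that these genes were unchanged. Most were below 0, namely 22 of 28 (78.6%) against 35.4% of all tested genes, a count that holds no test of its own. The median over members was -0.11 and the median over all tested genes 0.12. Under median ratio scaling both moved down, to -0.26 and -0.01. Without HS replicate 1, 14 of 28 members were below 0, against 44.4% of all genes, and the medians were -0.01 for members and 0.04 for all genes. Without drug-loaded MNs replicate 2 the count was also 14 of 28, against 31.2% of all genes. The medians were then -0.02 for members and 0.18 for all genes.

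The groups did not overlap in 7 members. In 6 of these (21.4%) both drug-loaded MNs libraries lay below both HS libraries, which was so for 11.2% of all tested genes. These were PSMB9, PSMD3, PSMD7, PSMD8, PSMD11 and PSME1. In 1 (PSME3) both lay above, which was so for 26.6% of all tested genes. Under median ratio scaling 12 members lay lower without overlap and 0 higher, where the shares of all tested genes were 20.6% and 18.3%.

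**Figure D1:**
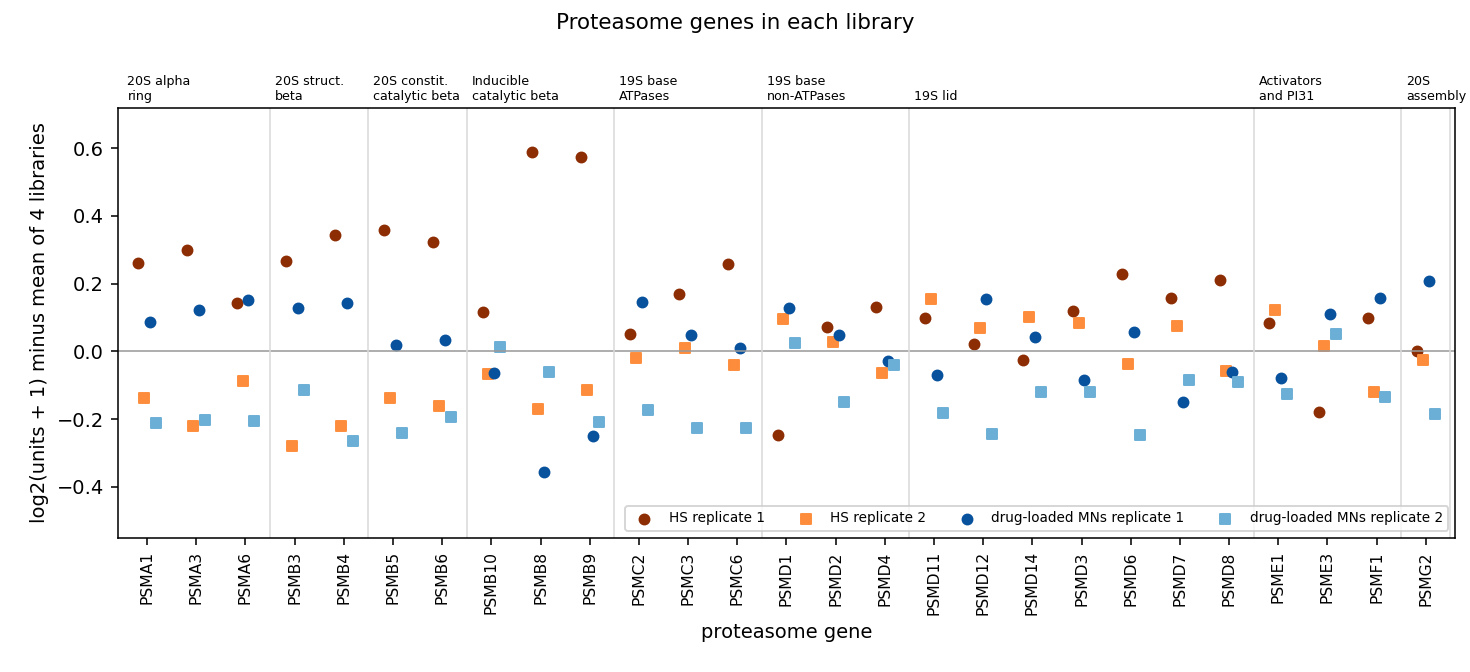
The vertical axis shows log2(units + 1) of each of 27 proteasome genes minus that gene's mean over the 4 libraries, with 1 point per library, and genes on the horizontal axis grouped by their place in the complex. HS replicate 1 (dark red circles) was the highest library in 17 of the 28 tested members, counting PSMC3IP, which is not drawn. It stood farthest above the others in PSMB8 and PSMB9. Drug-loaded MNs replicate 2 was the lowest library in 19 of the 28. The same counts over all tested genes were not taken, so neither can be called particular to proteasome genes.

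The alpha ring was represented by PSMA1, PSMA3, PSMA6 and PSMA8. PSMA1 stood at 127 and 95.8 units in HS and at 112 and 91.0 in drug-loaded MNs. PSMA3 stood at 338 and 236 units in HS and at 299 and 239 in drug-loaded MNs. PSMA6 stood at 192 and 163 units in HS and at 193 and 150.1 in drug-loaded MNs. In each of the 3 genes the groups overlapped, and within both groups replicate 1 exceeded replicate 2. Their log2 fold changes were -0.12 for PSMA1, -0.08 for PSMA3 and -0.06 for PSMA6, and without HS replicate 1 they were 0.08, 0.18 and 0.06. PSMA8, an alpha subunit of male germ cells, was listed at 0 in all libraries.

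Of the beta ring, 2 genes without a cutting site were measured. PSMB3 stood at 221 and 151 units in HS and at 200.4 and 169 in drug-loaded MNs. PSMB4 stood at 226 and 152 units in HS and at 196 and 148 in drug-loaded MNs. Both overlapped between the groups, with a log2 fold change of 0.01 for PSMB3, which was -0.13 under median ratio scaling, and of -0.12 for PSMB4. These were 0.29 and 0.16 without HS replicate 1. The constitutive cutting subunits also overlapped between the groups. PSMB5, which carries the chymotrypsin-like activity, stood at 306 and 217 units in HS and at 241 and 201 in drug-loaded MNs. Its log2 fold change was -0.22 (SE 0.25, adjusted p of 0.877 in limma, 95% interval -0.81 to 0.36). PSMB6, which carries the caspase-like activity, stood at 390 and 278 units in HS and at 319 and 272 in drug-loaded MNs, with a log2 fold change of -0.16 (SE 0.25, adjusted p of 0.909 in limma). In both genes HS replicate 1 was the highest library, followed by drug-loaded MNs replicate 1. The log2 fold changes without HS replicate 1 were 0.03 for PSMB5 and 0.08 for PSMB6. PSMB7, the third constitutive cutting subunit, was not analysed here.

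Of all tested members, the inducible subunits PSMB8 and PSMB9 had the lowest fold changes, and these values came close to 0 without 1 library, HS replicate 1. PSMB8, which replaces PSMB5, stood at 106 and 62.3 units in HS and at 54.7 and 67.2 in drug-loaded MNs. PSMB9, which replaces PSMB6, stood at 128 and 78.7 units in HS and at 71.7 and 73.7 in drug-loaded MNs. PSMB10, which replaces PSMB7, stood at 79.8 and 70.1 units in HS and at 70.2 and 74.1 in drug-loaded MNs. HS replicate 1 was the highest library for each of the 3, by a wide gap for PSMB8 and PSMB9 and by a narrow one for PSMB10, and the groups overlapped for PSMB8 and PSMB10. The log2 fold change was -0.42 for PSMB8 (SE 0.30, adjusted p of 0.786 in limma, 95% interval -1.12 to 0.28). It was -0.46 for PSMB9 (SE 0.28, adjusted p of 0.74 in limma, 95% interval -1.10 to 0.19), from 103 ± 34.5 units in HS to 72.7 ± 1.43 in drug-loaded MNs (SD, n = 2 each). For PSMB10 it was -0.05 (SE 0.22, adjusted p of 0.969 in limma). Without HS replicate 1 these values were -0.04, -0.11 and 0.04. Without HS replicate 2 they were -0.80, -0.80 and -0.14, and PSMB8 and PSMB9 then had an unadjusted p below 0.05. PSMB11, the thymus-specific cutting subunit, was at 0 in 3 libraries and at 0.061 units in drug-loaded MNs replicate 2, and was not tested.

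The balance of inducible to constitutive subunits was also taken within each library, where the scaling of the library drops out apart from the pseudocount. The log2 ratio of PSMB8 to PSMB5 was -1.52 and -1.78 in HS, against -2.12 and -1.57 in drug-loaded MNs. The groups overlapped, and the difference of -0.20 had an exact permutation p of 0.667. The log2 ratio of PSMB9 to PSMB6 was -1.60 and -1.81 in HS, against -2.14 and -1.87 in drug-loaded MNs. Here the groups did not overlap, and the difference of -0.30 had an exact permutation p of 0.333, the smallest that 2 libraries against 2 can give. With 1 library left out the difference for PSMB9 to PSMB6 ranged from -0.43 to -0.17. For PSMB8 to PSMB5 it was -0.06 without HS replicate 1, and in drug-loaded MNs it was 0.08 if replicate 1 was left out and -0.47 if replicate 2 was.

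**Figure D2:**
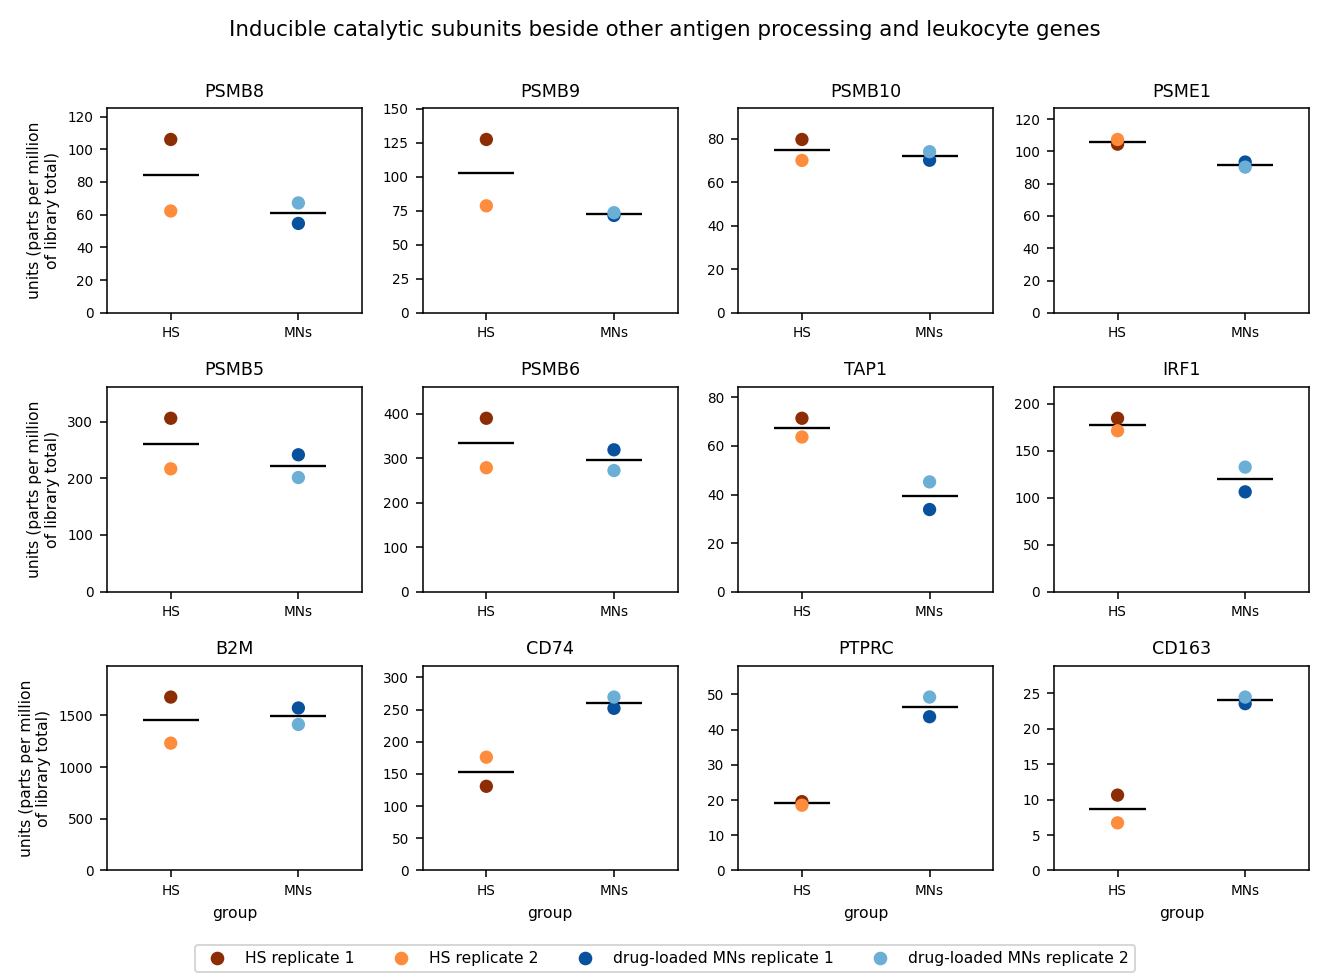
Each panel shows 1 gene in units (parts in 1000000 of the library total, axis from 0), with 1 point per library and a line at the group mean (n = 2). PSMB8 and PSMB9 were high in HS replicate 1 alone, TAP1 and IRF1 were lower in both drug-loaded MNs libraries, and the leukocyte genes PTPRC and CD163 and the MHC class II chaperone gene CD74 were higher in both.

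In the RefSeq order of rabbit genes, TAP1 lies between PSMB9 and PSMB8, and TAP2 follows PSMB8. TAP1 encodes a subunit of the transporter that carries proteasome products into the endoplasmic reticulum. TAP1 stood at 71.4 and 63.7 units in HS and at 33.8 and 45.2 in drug-loaded MNs, so that the groups did not overlap. Its log2 fold change was -0.77 (SE 0.25, unadjusted p 0.0151 and adjusted p 0.417 in limma), and it was -0.69 without HS replicate 1. Of the 9 peptide presentation genes tested, 6 were above 0 and 3 below, with a median log2 fold change of 0.05. In limma 1 in each direction (CD74 and TAP1) had an unadjusted p below 0.05. Of all tested genes, 7.26% did so for higher and 1.39% for lower values. B2M, the light chain of MHC class I, was at 1677 and 1231 units in HS and at 1571 and 1412 in drug-loaded MNs. CD74, which guides MHC class II, was at 131 and 176 units in HS and at 252 and 269 in drug-loaded MNs, with a log2 fold change of 0.78 (adjusted p of 0.404 in limma). PDIA3 and TAPBPL, both involved in peptide loading, had log2 fold changes of 0.30 and 0.26, the second of which was -0.01 under quantile normalization. TAP2 was not analysed here.

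Interferon response genes, which include known regulators of these subunits, had values in both directions. Of 11 tested, 6 were above 0 and 5 below, with a median of 0.08. In limma 3 had an unadjusted p below 0.05, 1 higher and 2 lower. The shares of all tested genes were 7.26% for higher and 1.39% for lower values. IRF1 is a transcription factor known to act on the promoter shared by PSMB9 and TAP1. It was at 184 and 171 units in HS and at 106 and 132 in drug-loaded MNs. Its log2 fold change was -0.58 (adjusted p of 0.513 in limma). Whether IRF1 acted on these genes here was not tested. The chemokine gene CXCL11 was at 44.9 and 27.8 units in HS and at 17.6 and 22.5 in drug-loaded MNs, with a log2 fold change of -0.80 (adjusted p of 0.506 in limma). IRF1 and CXCL11 were lower in both drug-loaded MNs libraries, and CXCL11 was at -0.46 without HS replicate 1. IFIT2, which binds viral RNA, was at 6.55 and 10.2 units in HS and at 30.1 and 12.8 in drug-loaded MNs, with a log2 fold change of 1.17 (adjusted p of 0.472 in limma). Leaving out drug-loaded MNs replicate 1 gave 0.59. Leaving out replicate 2 of that group gave 1.76, with an adjusted p of 0.037 in limma. IRF9, which binds DNA together with STAT proteins, had a log2 fold change of -0.33. With all 4 libraries 0 of the 11 passed the adjusted threshold.

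Immune cells carry the inducible subunits, so markers of these cells are given beside them. Of 6 general leukocyte genes tested, 4 were above 0. These 4 had an unadjusted p below 0.05 in limma, where 7.26% of all tested genes did for higher values. The median log2 fold change of the 6 genes was 0.99. Their sum was 372 and 310.4 units in HS, against 402 and 405 in drug-loaded MNs. PTPRC, the common leukocyte antigen CD45, was at 19.5 and 18.5 units in HS and at 43.7 and 49.3 in drug-loaded MNs. The 7 tested macrophage and dendritic cell genes were all above 0, with a median of 1.22 and a sum of 119.5 and 130.0 units in HS and of 286 and 284 in drug-loaded MNs. Only 2 of 10 T and NK cell genes were tested, and their sum stood at 3.45 and 3.24 units in HS and at 12.1 and 8.76 in drug-loaded MNs. In each of these lists both drug-loaded MNs libraries had the higher sums. Of the general leukocyte genes, CD53 and ARHGDIB had log2 fold changes below 0, at -0.39 and -0.015. CD53 was at 151 and 110.5 units in HS and at 83.6 and 116 in drug-loaded MNs. Mast cell genes had a sum of 136 and 57.5 units in HS and of 86.4 and 183 in drug-loaded MNs. PSMB8 and PSMB9 were highest in HS replicate 1. Of the general leukocyte genes tested only CD53 was, and the others were highest in a drug-loaded MNs library. The part of immune cells in the values of the inducible subunits was not tested.

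The base of the regulatory particle was represented by 3 ATPases and 3 other subunits. Of the ATPases, PSMC2 stood at 72.9 and 69.4 units in HS and at 77.9 and 62.3 in drug-loaded MNs. PSMC3 stood at 129 and 116 units in HS and at 119 and 98.1 in drug-loaded MNs. PSMC6 stood at 86.4 and 69.9 units in HS and at 72.4 and 61.4 in drug-loaded MNs. The groups overlapped for each, with log2 fold changes of -0.03, -0.18 and -0.22, which were 0.01, -0.10 and -0.07 without HS replicate 1. PSMD1, a scaffold of the base, stood at 92.9 and 118 units in HS and at 121 and 112.5 in drug-loaded MNs, with a log2 fold change of 0.15. PSMD2, the other large scaffold, stood at 122 and 118 units in HS and at 120.1 and 105 in drug-loaded MNs. PSMD4, a receptor for ubiquitin chains, stood at 132 and 115 units in HS and at 118 and 117 in drug-loaded MNs. PSMD1 was the only tested subunit of the regulatory particle above 0, and HS replicate 1 was its lowest library. Without HS replicate 1 its log2 fold change was -0.02.

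All 7 tested lid genes had a log2 fold change below 0, where 35.4% of all tested genes did. Their median was -0.19, with a range from -0.25 to -0.08. Of the 7, 4 were lower without overlap between the groups, where 11.2% of all tested genes were. With all 4 libraries, values below 0 were not particular to the lid. They were found in 12 of 13 regulatory particle genes, lid included, and in 6 of 7 core genes. Without HS replicate 1 the tested core genes lay above 0, from 0.03 (PSMB5) to 0.29 (PSMB3), and the lid genes stayed below 0. PSMD11, which helps to tie the lid to the base, stood at 148.5 and 154 units in HS and at 132 and 122 in drug-loaded MNs. Its log2 fold change was -0.25 (SE 0.21, adjusted p of 0.822 in limma, 95% interval -0.74 to 0.24). PSMD7, the partner of the deubiquitinase, stood at 217 and 205 units in HS and at 175 and 183 in drug-loaded MNs, with a log2 fold change of -0.23 (SE 0.21, adjusted p of 0.836 in limma). For both genes the libraries of a group lay closer to each other than to the other group. PSMD3, a structural subunit, stood at 94.4 and 92.0 units in HS and at 81.7 and 79.8 in drug-loaded MNs, with a log2 fold change of -0.20 (SE 0.21, adjusted p of 0.861 in limma). PSMD8, another structural subunit, stood at 368 and 305.5 units in HS and at 304.6 and 298.5 in drug-loaded MNs. Its groups were separated by less than 1 unit, between 305.5 and 304.6. Without HS replicate 1 the median of the 7 lid genes was -0.14, and PSMD11, PSMD7, PSMD3 and PSMD8 were at -0.28, -0.19, -0.19 and -0.02.

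The other 3 lid genes overlapped between the groups. PSMD6 stood at 109 and 90.3 units in HS and at 96.5 and 77.9 in drug-loaded MNs. PSMD12 stood at 167 and 173 units in HS and at 183 and 139 in drug-loaded MNs. PSMD14, the deubiquitinase that cuts ubiquitin from the substrate, stood at 72.9 and 79.7 units in HS and at 76.4 and 68.2 in drug-loaded MNs. Their log2 fold changes were -0.19, -0.09 and -0.08, and drug-loaded MNs replicate 2 was the lowest library for each. They were -0.06, -0.11 and -0.14 without HS replicate 1.

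**Figure D3:**
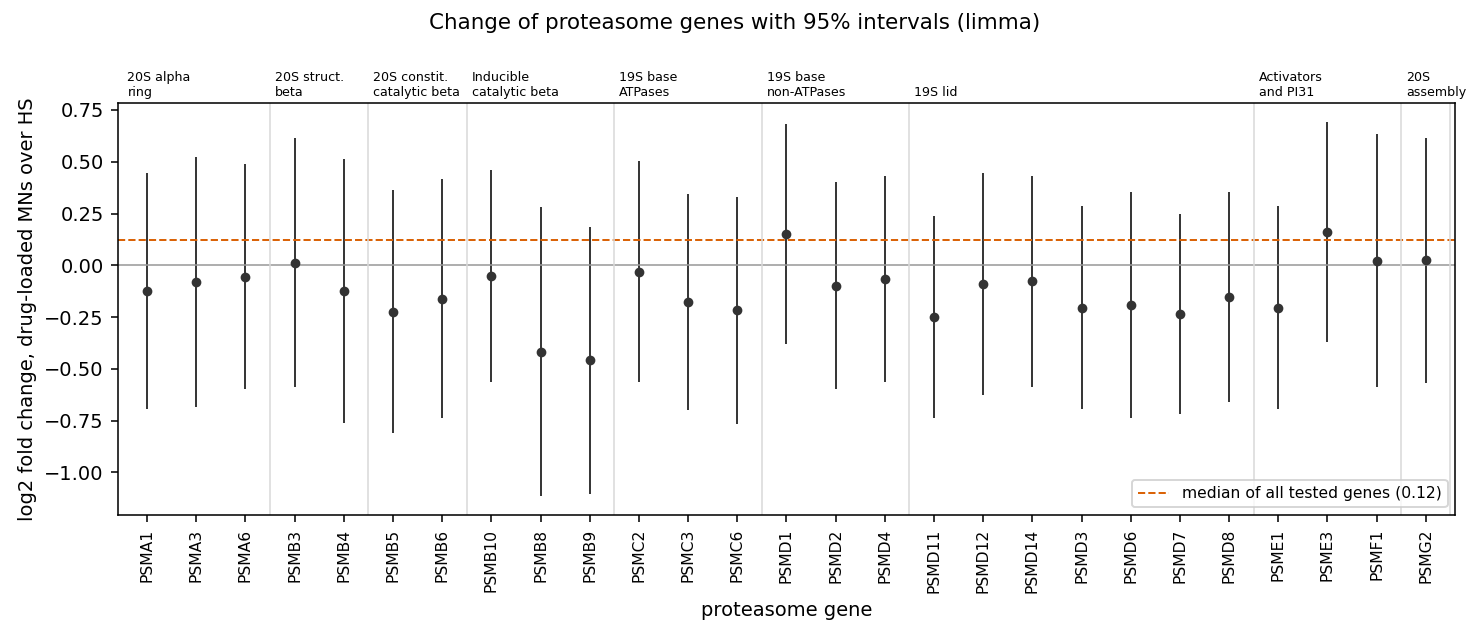
The vertical axis shows the log2 fold change of drug-loaded MNs over HS for 27 proteasome genes, with 95% intervals from limma (n = 2 libraries per group), and the dashed line marks the median of all tested genes at 0.12. Each interval spans 0, and 22 of the 27 points lie below 0.

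Of the alternative caps of the core, PSME1 and PSME3 were measured. PSME1, a subunit of the interferon-inducible activator, stood at 104 and 107 units in HS and at 93.4 and 90.2 in drug-loaded MNs. Its log2 fold change was -0.20 (SE 0.21, adjusted p of 0.861 in limma), and it was -0.22 without HS replicate 1. PSME3, the activator found in the nucleus, stood at 36.5 and 41.9 units in HS and at 44.8 and 42.9 in drug-loaded MNs. Its log2 fold change was 0.16 (SE 0.23, adjusted p of 0.899 in limma), below the size of its SE. It was 0.06 without HS replicate 1, and 0.02 under median ratio scaling, where its groups overlapped. The groups did not overlap in either gene, and for PSME3 the gap between them was about 1 unit, from 41.9 to 42.9. PSMF1, the regulator PI31, stood at 19.6 and 16.7 units in HS and at 20.4 and 16.5 in drug-loaded MNs. PSMG2, a chaperone that helps to build the alpha ring, stood at 28.3 and 27.7 units in HS and at 32.8 and 24.7 in drug-loaded MNs. Both lay at a log2 fold change of 0.02, and at -0.12 under median ratio scaling. PSMF1 was at 0.13 and PSMG2 at 0.04 without HS replicate 1. PSMC3IP, which the name rule also takes in, encodes a factor of meiotic recombination and no proteasome subunit, and stood at 10.2 and 6.03 units in HS and at 16.8 and 4.65 in drug-loaded MNs. PSME2, PSME4, POMP, ADRM1 and the regulatory particle assembly chaperones PSMD5, PSMD9 and PSMD10 were not analysed here.

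The libraries of a group also differed from each other. In all 7 tested core genes, replicate 1 exceeded replicate 2 in both groups, against 8 of 13 regulatory particle genes, 0 of 3 inducible subunits and 27.8% of all tested genes. Within the regulatory particle this held for all 3 ATPases and for 3 of 7 lid genes, and the difference between the parts was not tested. Over all members the count was 18 of 28, and 15 under quantile normalization or a total without abundant genes. The replicate numbers carry no order and no source ties equal numbers to 1 animal or day. HS replicate 1 exceeded HS replicate 2 by a median log2 ratio of 0.50 in core genes, 0.69 in inducible subunits and 0.07 in regulatory particle genes, with -0.12 over all tested genes. The same medians between the drug-loaded MNs libraries were 0.30, -0.08 and 0.16, with 0.11 over all tested genes. Core and regulatory genes were also set against each other within a library. The mean log2 value of the core genes minus that of the regulatory particle genes was 0.95 and 0.55 in HS, against 0.84 and 0.70 in drug-loaded MNs. Between the groups it differed by 0.02, far less than between the HS libraries. This measure was chosen after the values had been seen, and it was not tested.

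**Figure D4:**
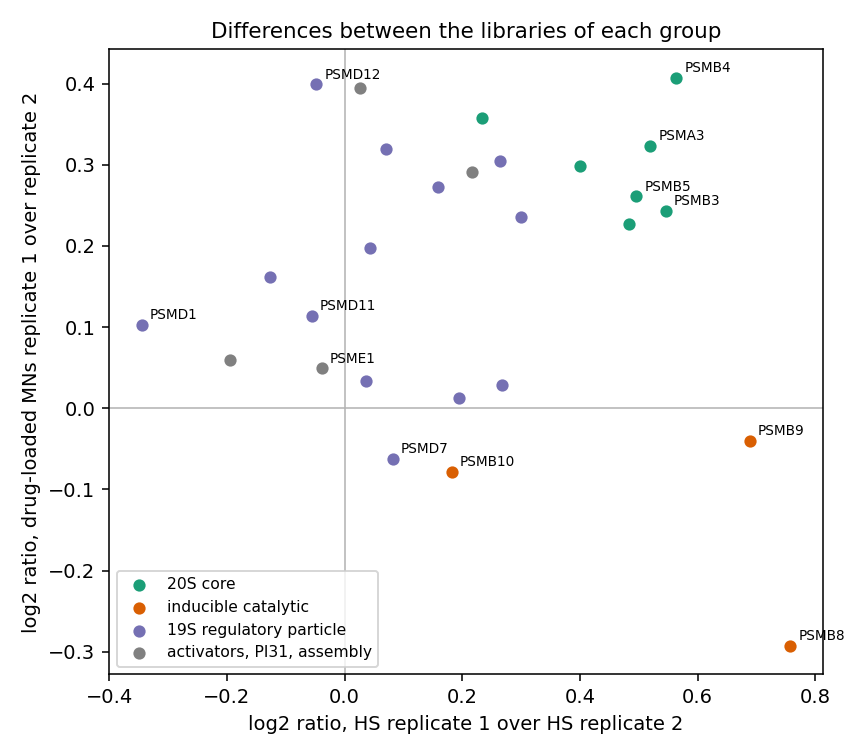
Each point is 1 proteasome gene, with the log2 ratio of HS replicate 1 over HS replicate 2 on the horizontal axis and of drug-loaded MNs replicate 1 over replicate 2 on the vertical axis. The 7 core genes lie in the upper right, PSMB8, PSMB9 and PSMB10 in the lower right, and the regulatory particle genes lie between -0.35 (PSMD1) and 0.30 (PSMC6) on the horizontal axis.

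Cycling genes differed between the libraries of a group in the same direction as the core genes. All 4 tested (TOP2A, CCNB1, CDK1 and PCNA) were higher in replicate 1 than in replicate 2 in both groups, and their sum was 260 and 147 units in HS, against 352 and 157 in drug-loaded MNs. Keratinocyte genes had a sum of 48536 and 58236 units in HS and of 39030.4 and 45665 in drug-loaded MNs. Most of this sum was KRT10, at 31734 and 45325 units in HS and at 24607 and 35763 in drug-loaded MNs. Of the 8 keratinocyte genes tested, 3 (KRT1, KRT5 and KRT14) were higher in replicate 1 than in replicate 2 of both groups. The part of cycling cells in the values of the core genes was not tested.

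The remaining marker lists are described by the log2 fold changes of their genes, which do not measure the share of a cell type in a library. The median over fibroblast genes was 1.12, with 6 of 6 tested above 0 and a sum of 22996 and 22526 units in HS against 44682 and 48616 in drug-loaded MNs. Medians were 0.18 for endothelial, 0.55 for mural, 0.54 for mast and 0.68 for Schwann cell genes, -0.24 for keratinocyte genes, 0.59 for cycling genes and -0.18 for genes of the dissociation response. Without HS replicate 1 they were -0.16 for endothelial, 0.13 for mural, 1.09 for mast and -0.07 for Schwann cell genes, -0.26 for keratinocyte genes, 1.29 for cycling genes and -0.67 for genes of the dissociation response. The fibroblast median was then 0.94. No erythroid gene was tested. The whole set of 30 proteasome genes took between 0.319% and 0.412% of the total in every library, with 4122 and 3409 units in HS, against 3643 and 3188 in drug-loaded MNs, so that its share overlapped between the groups.

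Genes that work with the proteasome gave no call either. Of 15 partners and regulators tested, 6 were above 0 and 9 (60.0%) below, where 35.4% of all tested genes were below. Their median log2 fold change was -0.01. At an unadjusted p below 0.05 in limma there were 0, against 7.26% of all tested genes for higher and 1.39% for lower values. With so few genes, 0 calls is not read as a result about them. NFE2L1, the transcription factor that raises proteasome genes when the complex is impaired, was at 78.2 and 94.4 units in HS and at 78.4 and 76.2 in drug-loaded MNs, with a log2 fold change of -0.15 (adjusted p of 0.902 in limma). NFE2L2, which controls antioxidant genes, was at 190 and 220.3 units in HS and at 160 and 168 in drug-loaded MNs, with a log2 fold change of -0.32 (adjusted p of 0.767 in limma). NFE2L2 did not overlap between the groups and NFE2L1 did. AKIRIN2, which brings proteasomes into the nucleus, had a log2 fold change of -0.35, the ubiquitin shuttle gene UBQLN4 of -0.27 and PAAF1, a chaperone of the regulatory particle, of -0.32. SEM1 was not analysed here.

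Ubiquitin itself and the enzymes that activate it likewise gave no call. Of 7 genes tested, 3 were above 0 and 4 (57.1%) below, where 35.4% of all tested genes were below. Their median was -0.05. At an unadjusted p below 0.05 in limma there were 0, against 7.26% of all tested genes for higher and 1.39% for lower values. Here too, 0 calls in so few genes is not read as a result. The polyubiquitin gene UBB was at 2429 and 1398 units in HS and at 1438 and 1723 in drug-loaded MNs, so that HS replicate 1 was again the highest library. UBA1, the main activating enzyme, was at 91.5 and 89.1 units in HS and at 86.9 and 73.5 in drug-loaded MNs. UBA6 and UBA7, which serve ubiquitin and ubiquitin-like proteins, had log2 fold changes of 0.38 and 0.41, which were 0.14 and 0.76 without HS replicate 1. UBA7 was at 0.06 without HS replicate 2.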

How the data were processed

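Single-cell RNA sequencing (scRNA-seq, 10x Genomics droplets, which read the 3′ ends of transcripts) was performed by the authors on the ventral epidermis and dermis of 4 rabbit ear scar tissues. Per the labels, Cell Ranger 2.1.1 was used, and the processing notes name the mouse build mm10, although the deposited table lists rabbit Ensembl identifiers. The study's methods state that UMIs were counted, cells were filtered, sample effects were corrected and Seurat was used. The table the authors deposited holds 1 relative expression signal per gene and library. Its name says FPKM, but each column sums to 10000 over 13913 genes. How cells were combined, whether the sample correction reached these values and how doublets were treated were not given in the sources used here. Whole reads could not be recovered (18.5% to 21.7% of low values lay within 0.1 of a whole step, up to 20 steps), so depth was unknown and no count model was run.

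Values were rescaled to 1000000 per library. Genes whose mean over the libraries reached 1 unit entered the fit (9348). Log2(value + 1) was fitted with limma 3.58.1 in R 4.3.3 (lmFit, eBayes with a variance trend, no covariate), with p-values in both directions and Benjamini-Hochberg adjustment over all tested genes. The fit was planned for FPKM and needed no change. It was tested on simulated data with changes larger than those of the members. Intervals are 95% intervals from the moderated fit. Ratios between subunits within a library were compared with an exact permutation test. The members and gene lists were chosen with earlier results of these data known. All tested members are given by library. The rule for named genes took the catalytic subunits, activators, POMP and ADRM1, members whose groups did not overlap, the 3 with the smallest unadjusted p of each subgroup, and from each list outside the members the 4 with the smallest unadjusted p, with TAP1, B2M and NFE2L1. Alternatives were other scalings, pseudocounts (0.1 and 5), filters (none or a mean of 5), eBayes settings, the replicate number as a block and leaving out each library. Gene order came from the RefSeq list of rabbit assembly mOryCun1.1, used for names only. No sequences were used.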

Additional observations from a re-analysis of the deposited data

How the results depend on the processing

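0 of 28 members passed the adjusted threshold in all 14 alternatives. Genes past the threshold (4 of all tested genes) numbered 0 with no filter, with a total without abundant genes, with a pseudocount of 5, with quantile normalization and with median ratio scaling, 1 with eBayes without trend, and 0 to 75 with 1 library left out, where the fit takes a lone library to vary as much as the others. The cause of these moves was not tested. A replicate block raised the count to 241, with 0 members among them. The smallest adjusted p of a member in the block fit was 0.558. Same-numbered libraries shared only a number (deviations from the group means correlated at 0.22 over all tested genes), and 2 pairs cannot show a pairing. The median of the members (-0.11) lay between -0.23 and -0.01 with 1 library left out and at -0.12 without PSMC3IP, an alternative chosen after seeing the data. The PSMB8 to PSMB5 difference (-0.195) ranged from -0.472 to 0.083 with 1 library left out.

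Of 28 members, 11 kept their direction in all alternatives. Filters, eBayes settings and the replicate block leave a fold change as it is. Only the scalings, the pseudocounts and leaving out a library could turn a sign. Signs turned under median ratio scaling for PSMB3 (-0.13), PSMF1 (-0.12), PSMG2 (-0.12) and B2M (-0.093), and under quantile normalization for PSMF1 (-0.15), PSMG2 (-0.10), PSMC3IP (-0.046) and TAPBPL (-0.008). With 1 library left out, log2 fold changes that turned ranged for AKIRIN2 from -0.726 to 0.019, for B2M from -0.171 to 0.274, for PSMA1 from -0.324 to 0.076, for PSMA3 from -0.341 to 0.179, for PSMA6 from -0.234 to 0.124, for PSMB10 from -0.143 to 0.040, for PSMB3 from -0.260 to 0.286, for PSMB4 from -0.406 to 0.159, for PSMB5 from -0.470 to 0.025, for PSMB6 from -0.403 to 0.081, for PSMC2 from -0.190 to 0.130, for PSMC3IP from -0.653 to 1.006, for PSMD1 from -0.021 to 0.324, for PSMD12 from -0.289 to 0.111, for PSMD14 from -0.158 to 0.003, for PSMD2 from -0.198 to 0, for PSMD4 from -0.165 to 0.029, for PSMF1 from -0.124 to 0.167, for PSMG2 from -0.173 to 0.221, for UBB from -0.625 to 0.171. The cause was not tested. A count test could not be run without whole reads, and the PSMB10 to PSMB7 ratio and the sequence description were not run.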
